A study of Mus musculus with 4 samples.

Results

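The nuclei described here are the CM4 cardiomyocyte nuclei of neonatal mouse hearts on which a final population label and a label transferred from an earlier reference both read CM4. They numbered 652 of 8585 nuclei. The final label alone read CM4 on 853 nuclei and the transferred label alone on 836. Of the nuclei with the final label CM4, 154 had the transferred label CM1 and 47 had CM2 or CM3, and 156 nuclei with the final label CM1 had the transferred label CM4. The main reference, within each library, was the 5305 nuclei on which both labels read CM1. The deposited label CM1 holds the populations CM1 and CM3 of the study together.

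Single-nucleus RNA-seq was done on 4 libraries, 1 for each combination of genotype and surgery. WT-MI and WT-Sham are labelled wildtype, and KO-MI and KO-Sham are labelled Nrf1 cardiomyocyte knockout. Per the protocols, the C57BL/6 pups were Nrf1 fl/fl, with loxP sites flanking the gene, and the knockouts also carried aMHC-Cre, a recombinase driven in cardiomyocytes by the promoter of alpha myosin heavy chain, so that other cells keep the gene. Pups had myocardial infarction (MI, made by tying off the left anterior descending artery) or Sham surgery (the chest was opened without a tie) at postnatal day 3, and hearts were taken 1 day later. Tissue below the level of the tie was pooled from 4 to 6 hearts before nuclei were isolated. Each group is therefore 1 library from 1 pool. Nuclei of a pool are not replicates, so differences carry no p-value, and all intervals cover counting error only. The sex of the pups in each pool is not given in the sources used here.

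Neonatal cardiomyocytes still carry parts of the embryonic muscle program and can divide for a few days after birth. The embryonic program includes actin and troponin isoforms that the adult ventricle replaces, such as smooth muscle alpha-actin and the slow skeletal isoform of troponin I. Serum response factor switches on many genes of smooth and cardiac muscle by binding CArG boxes in their promoters, and TEAD factors bind MCAT elements in many of the same promoters. A nucleus holds mostly unspliced RNA and long noncoding RNA that never leaves it. RNA of ribosomal proteins, of respiratory chain subunits and of the mitochondrial genome is located mostly in the cytoplasm or the mitochondria.

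The 6 genes given as markers of CM4 fall into 3 kinds. Acta2 (smooth muscle alpha-actin), Tagln (transgelin, an actin-binding protein) and Myl9 (a regulatory light chain of smooth muscle and non-muscle myosin) belong to the smooth muscle contractile program. Tnni1 encodes the slow skeletal isoform of troponin I, which the fetal heart uses. Cyyr1 encodes a membrane protein, and Ldb2 encodes an adaptor protein that binds LIM-domain factors. In the GENCODE annotation of GRCm38, the build of the deposited counts, Acta2 spans chr19:34241090-34255590, Tagln chr9:45929619-45936058, Myl9 chr2:156775420-156781658, Tnni1 chr1:135779434-135810989, Cyyr1 chr16:85421533-85553397 and Ldb2 chr5:44472132-44799680, introns included. Tagln, Cyyr1 and Ldb2 overlap 2, 1 and 11 other annotated genes, so that their reads may be shared.

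Upstream sequence is shown for the 3 markers with the most UMIs, because CArG boxes are the element through which serum response factor acts on smooth muscle genes. The sequences are from RefSeq promoters on GRCm38.p6, 5′ to 3′ on the strand of the gene, and position -1 is the last base before the RefSeq start. Capitals mark CArG boxes, or sequences that have a single G or C in the A/T core of the box. The stretches of Acta2 are chr19:34255438-34255467 and chr19:34255388-34255417 on the minus strand, which GENCODE places inside an exon. Those of Myl9 and Tnni1 are chr2:156775214-156775419 and chr1:135799171-135799401 on the plus strand, outside annotated exons.
Acta2, positions -94 to -65: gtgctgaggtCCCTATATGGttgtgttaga
Acta2, positions -44 to -15: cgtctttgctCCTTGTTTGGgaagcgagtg
Myl9, positions -250 to -45: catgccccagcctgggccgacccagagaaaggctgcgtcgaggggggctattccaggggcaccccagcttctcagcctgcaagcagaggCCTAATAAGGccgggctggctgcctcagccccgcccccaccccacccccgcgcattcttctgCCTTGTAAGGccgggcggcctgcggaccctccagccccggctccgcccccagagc
Tnni1, positions -250 to -20: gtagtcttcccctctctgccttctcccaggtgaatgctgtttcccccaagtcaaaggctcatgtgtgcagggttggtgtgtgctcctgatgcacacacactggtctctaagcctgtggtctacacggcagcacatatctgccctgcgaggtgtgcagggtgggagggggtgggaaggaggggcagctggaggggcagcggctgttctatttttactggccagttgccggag

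In the 250 bases upstream of the start, Acta2 held 2 CArG-like sequences with a single G or C in the core, at -84 to -75 and -34 to -25, and an MCAT element (CATTCC) at -146 to -141. Myl9 held a CArG box at -161 to -152 and a CArG-like sequence at -99 to -90. No CArG or MCAT match was found for Tnni1 or Cyyr1, and Tagln and Ldb2 were not searched. Both strands were searched, and matches of different motifs were counted separately where they overlapped. Among the genes higher in CM4 than in CM1 in all 4 libraries, described further on, 2.42% of 578 promoters held a CArG box, against 2.36% of 467 promoters of the genes that were lower, 1.68% of 5290 promoters of all genes compared and 1.62% of 27025 RefSeq promoters. For the CArG-like sequence the shares were 10.4%, 8.57%, 7.96% and 8.33%, and for the MCAT element 12.5%, 16.5%, 13.2% and 14.4%. The antioxidant response element (TGANNNNGC), which factors of the Nrf family bind, was found in 39.3%, 45.8%, 42.2% and 38.7%. The CArG box shares rest on 14 promoters of higher and 11 of lower genes, and no share was tested against another. A match is a description of the letters, not a bound site.

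Over all nuclei the libraries labelled WT-MI, KO-MI, WT-Sham and KO-Sham held 2003, 1848, 1406 and 3328 nuclei and 4984625 to 9106522 UMIs. Values in the 4 libraries are given in this order throughout. The targeted gene, Nfe2l1, which encodes Nrf1, checks the labels. Over all nuclei it stood at 55.3 CPM (counts per 1000000 UMIs of a sum) in KO-MI and at 47.4 CPM in WT-MI, as labelled, a log2 ratio of 0.22 (95% interval 0.02 to 0.43) that goes against the label. After Sham surgery it was 50.5 CPM in the library labelled KO-Sham and 62.2 CPM in the library labelled WT-Sham, a log2 ratio of -0.30 (-0.51 to -0.09). Within CM4 its level was 68.7, 29.6, 49.3 and 43.4 CPM, from 22, 9, 16 and 22 UMIs. The CM4 value was lowest in the library labelled KO-MI, with a log2 ratio to the library labelled WT-MI of -1.22 (-2.52 to -0.04), and the ratio after Sham surgery was -0.18 (-1.18 to 0.84). In CM1, from 253 and 215 UMIs, the ratio after MI was 0.36 (0.09 to 0.63), also against the label, and after Sham surgery -0.19 (-0.44 to 0.07). The deleted exons cannot be seen in counts per gene. Therefore, genotype directions are given by the label of the library. Of all nuclei, 18 carried a barcode that occurs in more than 1 library, and 3 of them are CM4 nuclei.

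CM4 nuclei made up 7.59% (152 nuclei, 95% interval 6.47 to 8.84), 5.74% (106 nuclei, 4.72 to 6.90), 11.4% (160 nuclei, 9.77 to 13.2) and 7.03% (234 nuclei, 6.19 to 7.95) of the cardiomyocyte nuclei. The share was highest in the library labelled WT-Sham and lowest in the library labelled KO-MI, but the intervals of WT-MI, KO-MI and KO-Sham all overlapped one another. The WT-Sham interval lay above the other intervals. The final label alone gave 9.59%, 6.39%, 13.7% and 10.5%, and the transferred label alone gave 10.3%, 7.31%, 12.5% and 9.59%. Among nuclei with 1000 or more UMIs and under 10% mitochondrial UMIs the share was 2.70%, 3.51%, 0.904% and 2.97%. The library labelled WT-Sham had the highest share under each choice of label and the lowest under this quality limit, so the order of the libraries changes with that limit.

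CM4 nuclei were shallower than CM1 nuclei and held a larger share of mitochondrial RNA in every library. The median was 1692, 2364, 1689.5 and 1870.5 UMIs per CM4 nucleus and 4104, 4038.5, 3730.0 and 2653 per CM1 nucleus. Detected genes followed, with medians of 964.5, 1223.5, 910.0 and 1036 in CM4 and 1894, 1892.5, 1800.5 and 1381.5 in CM1, but after each nucleus was thinned to 1000 UMIs the medians were 628, 632, 605 and 628.5 genes in CM4 and 636, 641, 651 and 638 in CM1. At equal depth the medians differed by far less. Mitochondrial genes took a median of 11.2, 9.70, 14.96 and 11.8% of the UMIs of a CM4 nucleus and 5.08, 5.04, 6.13 and 8.66% of those of a CM1 nucleus. At or above 10% were 69.1, 44.3, 93.8 and 73.5% of the CM4 nuclei and 7.15, 5.97, 8.99 and 32.8% of the CM1 nuclei. The library labelled WT-Sham had the highest mitochondrial share in CM4, and the library labelled KO-Sham had the highest in CM1. The transfer score for CM4, a value from 0 to 1, had medians of 0.862, 0.865, 0.872 and 0.810 in CM4 nuclei.

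**Figure D1:**
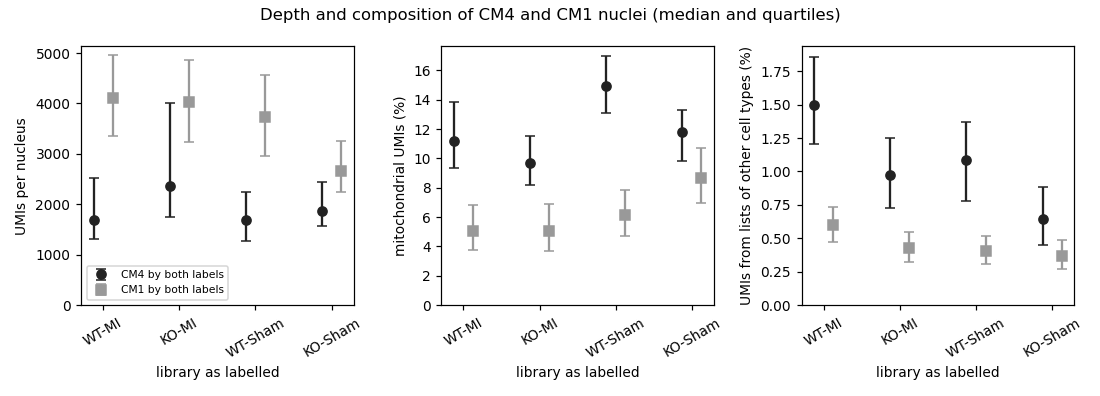
Median and quartiles over nuclei of the UMIs per nucleus, the percent of mitochondrial UMIs and the percent of UMIs from 72 genes of other cell types, red blood cells included, for CM4 (black circles) and CM1 (grey squares) in each library as labelled. In all 4 libraries the CM4 medians lie below CM1 for UMIs and above CM1 for both percentages.

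RNA of other cell types was also more frequent in CM4. The lists of endothelial, endocardial, pericyte, fibroblast, epicardial, myeloid, red blood cell and Schwann or neuronal genes together hold 72 genes. Of the 72 genes, 3 were at 0 UMIs in all CM4 nuclei. Together the 72 genes took a median of 1.501, 0.973, 1.09 and 0.645% of the UMIs of a CM4 nucleus and 0.599, 0.425, 0.405 and 0.368% of those of a CM1 nucleus. Red blood cell genes summed to 7086, 3672, 8151 and 2235 CPM in CM4 and 3884, 2038, 2682 and 1916 CPM in CM1. Endothelial genes summed to 2296, 2131, 2210.4 and 2196 CPM in CM4 and 564, 638, 498 and 899.5 CPM in CM1, and fibroblast genes to 2840.0, 2456, 2929 and 2468 and 956, 959, 1133 and 1014 CPM. The matrix used here holds nuclei of cardiomyocyte clusters, and the levels in endothelial cells or fibroblasts of the same hearts were not analysed here. The part of this RNA in the CM4 values was not tested.

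The 3 contractile markers were higher in CM4 than in CM1 in each library. The labels were made from the expression of the same nuclei, so these levels describe the label and are no test of it. Acta2 stood at 603, 985, 419 and 439.9 CPM in CM4 and 210.5, 298, 139 and 258 CPM in CM1, with log2 ratios of 1.52 (1.29 to 1.74), 1.73 (1.54 to 1.91), 1.60 (1.31 to 1.87) and 0.77 (0.56 to 0.97). In CM4 Acta2 was highest in the library labelled KO-MI. Its ratio was smallest in the library labelled KO-Sham, whose CM1 level lay between those of the MI libraries. Myl9 stood at 299.9, 772, 240.5 and 227 CPM in CM4 and 144, 225, 72.6 and 133 CPM in CM1, with log2 ratios of 1.06, 1.78, 1.73 and 0.77. Tagln stood at 84.4, 135, 24.7 and 21.7 CPM in CM4, from only 27, 41, 8 and 11 UMIs, and at 33.0, 40.4, 5.39 and 9.68 CPM in CM1, with log2 ratios of 1.35, 1.74, 2.19 and 1.16. In CM4 all 3 were highest in the library labelled KO-MI, and the level of Tagln was lower in both Sham libraries than in both MI libraries.

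The other markers differed in level and reliability. Tnni1 stood at 1099.8, 1819, 1908 and 1953 CPM in CM4 and 584, 769, 979 and 1286 CPM in CM1, with log2 ratios of 0.91, 1.24, 0.96 and 0.60. In CM4 it was lowest in the library labelled WT-MI and similar in the other libraries. Cyyr1 stood at 28.1, 32.8, 67.8 and 33.5 CPM in CM4 from 9, 10, 22 and 17 UMIs and at 3.32, 8.16, 2.27 and 6.34 CPM in CM1, with log2 ratios of 3.08, 2.01, 4.90 and 2.40. Ldb2 stood at 43.7, 36.1, 61.7 and 57.2 CPM in CM4 from 14, 11, 20 and 29 UMIs and at 5.40, 7.71, 7.37 and 5.51 CPM in CM1, with log2 ratios of 3.02, 2.23, 3.06 and 3.38. These are the largest ratios among the 6 markers but rest on the fewest UMIs over the 4 libraries together, although Tagln has fewer in both Sham libraries. Cyyr1 was found in 46 and Ldb2 in 51 of the 652 nuclei, and 10 nuclei held 36.2% and 44.6% of their UMIs.

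**Figure D2:**
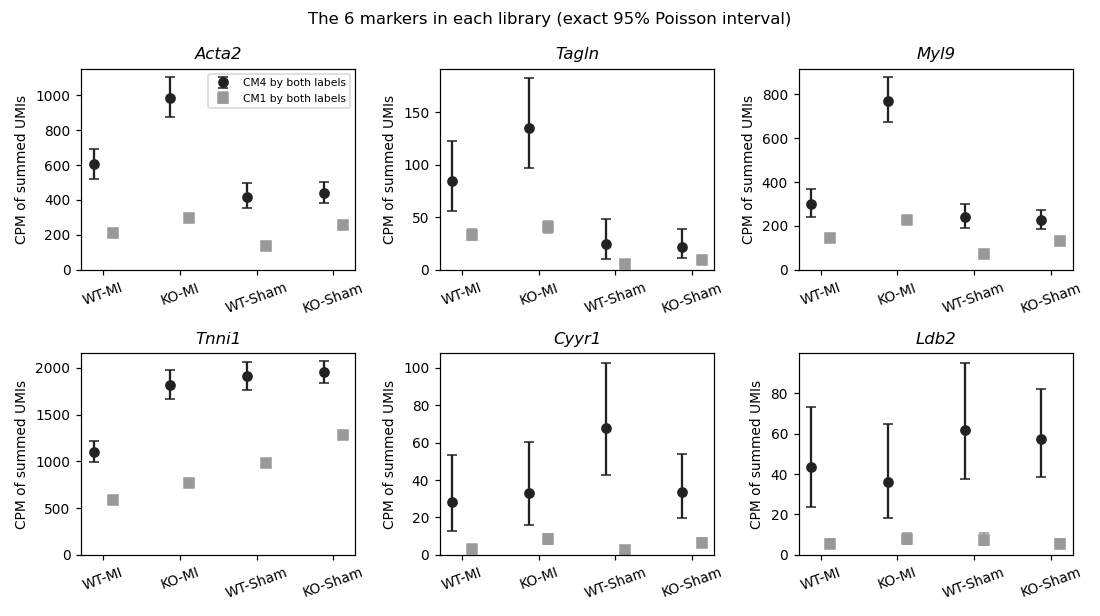
CPM of the UMIs summed over the CM4 nuclei (black circles) and the CM1 nuclei (grey squares) of each library as labelled, with exact 95% Poisson intervals, for the 6 markers. CM4 lies above CM1 in every panel and library, from a log2 ratio of 0.60 for Tnni1 in the KO-Sham library to 4.90 for Cyyr1 in the WT-Sham library.

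The share of nuclei with a UMI was compared at 1000 UMIs per nucleus, which left out 6 CM4 nuclei and 1 CM1 nucleus. Acta2 was then detected in 38.9% of 646 CM4 nuclei (95% interval 35.1 to 42.7) and 20.5% of 5304 CM1 nuclei (19.4 to 21.6), and unthinned in 57.8% and 51.5%. Myl9 was detected in 24.3% and 13.6%, Tagln in 5.73% and 1.90%, and Tnni1 in 76.8% and 61.2%. Cyyr1 was detected in 4.18% of CM4 nuclei (2.77 to 6.02) and 0.698% of CM1 nuclei (0.492 to 0.960), and Ldb2 in 4.49% (3.03 to 6.38) and 0.622% (0.429 to 0.873). Without thinning, Tnni1 was detected in 89.4% of the shallower CM4 nuclei and 93.8% of the deeper CM1 nuclei, the opposite order. Genes that cardiomyocytes should lack were detected too. The endothelial adhesion molecule Pecam1 was detected in 6.50% of CM4 nuclei and 1.68% of CM1 nuclei, and the fibroblast collagen Col1a1 in 28.9% and 13.7%. The thinned shares of Cyyr1, Ldb2 and Tagln in CM4 lie below that of Pecam1, and that of Myl9 lies below that of Col1a1, in the same nuclei. None of these 4 shares is read as expression by cardiomyocytes. The comparison rests on Pecam1 and Col1a1 only and does not set Acta2 and Tnni1 apart. Unthinned, the hemoglobin gene Hbb-bs was detected in 155 of 160 CM4 nuclei of the library labelled WT-Sham. In the same nuclei Acta2 was detected in 78 and Tnni1 in 148.

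Detection of Cyyr1 or Ldb2 did not go with detection of the contractile markers. Of the 646 thinned CM4 nuclei, 53 held a UMI of Cyyr1 or Ldb2. A UMI of Acta2, Tagln or Myl9 was found in 54.7% of these 53 and in 55.0% of the other 593. A UMI of the endothelial list was found in 94.3% of the 53 and 79.3% of the others, and a UMI of the fibroblast list in 86.8% and 85.2%. Cardiac RNA was present in all of them. No thinned CM4 nucleus lacked a UMI of the sarcomere list, and the median was 58 sarcomere UMIs per 1000 in the 53 nuclei, 59 in the other CM4 nuclei and 45 in CM1 nuclei. Tnnt2 (cardiac troponin T) was detected in 99.1% of thinned CM4 nuclei and 96.9% of CM1 nuclei.

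Nuclei with the final label CM4 and the transferred label CM1 lay between CM4 and CM1 in endothelial and nuclear RNA. The endothelial list stood at 974, 708, 1497 and 1288 CPM in the 154 nuclei with the final label CM4 and the transferred label CM1, which is below CM4 by both labels in each library. In the 156 nuclei with the final label CM1 and the transferred label CM4 it stood at 1328, 1663, 3523 and 2013 CPM, above CM4 by both labels in the library labelled WT-Sham. In the 154 nuclei, long RNAs kept in the nucleus stood at 91048, 55026, 36408 and 67307 CPM, above CM4 by both labels in each library. Red blood cell genes, mostly hemoglobins, stood at 16673, 2448, 38548 and 24052 CPM in the same 154 nuclei, against 7086, 3672, 8151 and 2235 CPM in CM4 by both labels. The library labelled KO-MI was the exception in holding less hemoglobin RNA in these nuclei than in CM4 by both labels. The markers together stood at 2159, 3779.9, 2722 and 2732 CPM in CM4 by both labels. They stood at 1484, 2123, 1228 and 2031 CPM in the 156 nuclei, lower in each library. In the 154 nuclei they stood at 1543, 4128, 2543 and 2042 CPM, and the interval of the ratio included no change in the libraries labelled KO-MI and WT-Sham.

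Across all genes, 6665 had an expected count of 5 or more UMIs in CM4 of each library and entered the comparison with CM1. A gene was counted when its ratio passed 1.5-fold in the same direction in all 4 libraries and each 95% interval excluded no change. By this rule 711 genes were higher in CM4 (10.7% of those entered) and 620 were lower (9.3%). Without the library labelled KO-Sham the counts were 957 and 1047 of 6668 genes entered. With nuclei under 10% mitochondrial UMIs they were 181 and 158 of 1047 entered, and 177 and 147 were also counted in the main comparison. With nuclei thinned to 1000 UMIs they were 326 and 255 of 3432 entered, and 323 and 237 were shared. The median log2 ratio of all genes entered was -0.24, -0.37, -0.53 and -0.19. Scaling by trimmed means (TMM) moved all ratios by -0.19, -0.13, -0.01 and -0.07 and gave 603 higher and 844 lower genes, so the balance of both directions depends on the scaling. Since the labels were drawn from the same counts, these numbers are descriptive.

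Among the 15 genes furthest above CM1 in their weakest library were Eng, Emcn, Cdh5 and Cd34, surface proteins of endothelial cells, and the basement membrane protein Nid1, the matrix proteoglycan Bgn and the fibrillar collagen Col5a1. Cdh5 (VE-cadherin, of the junctions between endothelial cells) stood at 141, 88.7, 114 and 74.97 CPM in CM4 and 24.3, 23.1, 19.3 and 26.7 CPM in CM1, log2 ratios of 2.53, 1.94, 2.56 and 1.49. Eng (endoglin, a co-receptor of the TGF-beta family) stood at 125, 95.2, 74.0 and 74.97 against 26.6, 24.5, 13.6 and 19.2 CPM, log2 ratios of 2.23, 1.96, 2.44 and 1.97. Both were well above CM1 in each library.

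Ebf1, a transcription factor known from B cells and mesenchymal cells, had the highest weakest ratio, with 87.5, 154, 105 and 103 CPM in CM4, 18.1, 16.3, 18.7 and 18.2 CPM in CM1 and log2 ratios of 2.27, 3.24, 2.49 and 2.50. Fbxl7, an F-box protein of a ubiquitin ligase, stood at 122, 148, 74.0 and 76.9 CPM against 18.7, 17.9, 16.5 and 14.4 CPM, log2 ratios of 2.70, 3.04, 2.17 and 2.42. These 2 genes span 390775 and 355122 bases, far longer than most genes that were higher in CM4. Ramp2, a co-receptor for adrenomedullin that endothelial cells use, had ratios of 1.66, 1.95, 1.69 and 1.41. H19, an imprinted long RNA of fetal growth, stood at 206, 276, 382 and 209 CPM against 55.1, 61.5, 88.2 and 80.1 CPM, log2 ratios of 1.91, 2.17, 2.12 and 1.38, and overlaps 3 other genes. The remaining 4 of the 15 were Arhgdia, Selenoh (a selenoprotein), Eif6 (a factor of ribosome assembly) and Ccdc85b, with weakest log2 ratios from 1.38 to 1.498.

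The genes furthest below CM1 were mostly long genes and noncoding RNAs. Fgf14, a regulator of sodium channels that spans 699221 bases, stood at 28.1, 29.6, 30.8 and 69.0 CPM in CM4 and 185, 143, 329 and 272 CPM in CM1, log2 ratios of -2.72, -2.27, -3.41 and -1.98. Angpt1, the angiopoietin that acts on the endothelial receptor Tie2, stood at 21.9, 9.85, 70.9 and 39.5 CPM against 94.5, 89.8, 228 and 167 CPM. Its log2 ratios were -2.11, -3.19, -1.69 and -2.09, and in both populations it was lower in the MI libraries than in the Sham libraries. Thrb (thyroid hormone receptor beta, a regulator of heart maturation) stood at 3.12, 3.28, 12.3 and 7.89 CPM against 43.8, 42.2, 34.3 and 30.4 CPM, from 1 to 4 UMIs per library in CM4. Crhr2 (a receptor for urocortins) stood at 12.5, 13.1, 15.4 and 9.86 CPM against 65.7, 70.1, 47.9 and 41.2 CPM, with log2 ratios of -2.39, -2.42, -1.64 and -2.06. The others were Wdr72, Agbl4, Rnf150, Cux2, Gramd1b, Zranb3, the Y-linked gene Uty and the noncoding or predicted genes A330102I10Rik, Gm43948, D830032E09Rik and Gm12381. Wdr72 had 0 CM4 UMIs in the library labelled WT-Sham, where its log2 ratio at the floor of 3 UMIs is at most -1.79.

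Direction followed the span of a gene, introns included. Of 1013 genes under 10 kb that entered, 44.2% were higher in CM4 in all 4 libraries and 1.38% were lower. Of 273 genes over 300 kb, 1.10% were higher and 51.6% lower. The shares between these ends were 11.1% higher and 2.30% lower among 1785 genes of 10 to 30 kb, 1.86% and 6.65% among 2467 genes of 30 to 100 kb, and 0.741% and 23.7% among 1080 genes of 100 to 300 kb. The median log2 ratio was 1.12, 1.14, 1.27 and 0.67 under 10 kb and -0.96, -1.20, -1.54 and -0.77 over 300 kb. The median span was 6.87 kb for genes higher in CM4, 143 kb for genes lower and 37.6 kb for the 6618 genes entered with a span. The counts cover introns, so long genes carry more unspliced RNA. A gene list below is best read beside the values for genes of its length. Of all genes entered, 10.7% were higher and 9.3% lower.

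**Figure D3:**
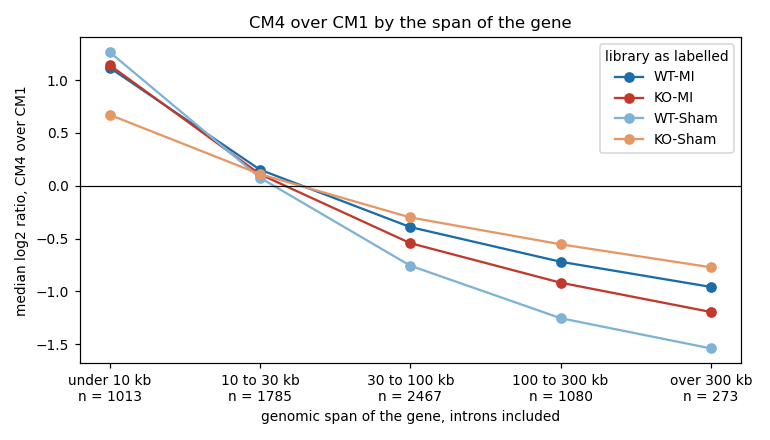
Median log2 ratio of CM4 over CM1 of the genes in 5 classes of genomic span, for each library as labelled. The medians fall from 0.67 to 1.27 for genes under 10 kb to -1.54 to -0.77 for genes over 300 kb in all 4 libraries.

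Genes of protein synthesis and the respiratory chain were higher in CM4 nearly as whole lists. Of 81 cytosolic ribosomal protein genes, 80 were counted higher and 0 lower, and together they stood at 76412, 87461, 70955 and 61884 CPM in CM4 and 26046, 29291, 22195 and 32943 CPM in CM1. Of 38 nuclear genes of respiratory complex I, 33 were higher and 0 lower, with list log2 ratios of 1.27, 1.502, 1.64 and 0.74. Of 42 genes of complexes II to V, 36 were higher and 0 lower, with 1.36, 1.56, 1.71 and 0.73. An example is Cox4i1, a subunit of cytochrome c oxidase, at 2531, 3314, 4575 and 4693 CPM in CM4 and 959, 1147, 1437 and 2765 CPM in CM1. Of the 13 protein genes of the mitochondrial genome, 2 of 11 entered were counted higher, and the list ratios were 1.02, 0.83, 1.20 and 0.42. The spans of these genes were not matched to those of other genes. Each list had its smallest ratio in the library labelled KO-Sham, whose CM1 nuclei had the lowest UMI count and the highest mitochondrial share.

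Sarcomere and calcium handling genes differed in their counts, beside 10.7% higher and 9.3% lower of all genes entered. Of 20 sarcomere genes of the mature heart, 8 were higher and 1 lower, and the list stood at 59615, 69815, 69515 and 60738 CPM in CM4 and 41979.5, 44388, 40458 and 48858 CPM in CM1. Actc1 (cardiac alpha-actin) stood at 8095, 9941, 7547 and 5954 CPM against 2332, 2835, 1898 and 3611 CPM, and Myl3 (the ventricular essential light chain) at 6036, 7471, 10562 and 8961 against 2012, 2519, 2907 and 5269.7 CPM. Of 13 genes of calcium handling, 12 entered, 0 were higher and 7 were lower, with list log2 ratios of -1.37, -1.32, -1.24 and -0.68. Ryr2, the calcium release channel of the sarcoplasmic reticulum, which spans 553844 bases, stood at 2628, 2158, 2824 and 4315 CPM in CM4 and 7650.1, 7035, 9707 and 8163 CPM in CM1. Slc8a1, the sodium-calcium exchanger, which spans 365273 bases, stood at 5999, 6371, 3471 and 5228 against 20840.4, 19074, 11639.7 and 10164 CPM. Atp2a2, the calcium pump of the sarcoplasmic reticulum, which spans 48713 bases, had log2 ratios of -0.05, 0.19, 0.254 and -0.01 and was not counted. Of these 3 genes the 2 long ones were lower.

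Isoforms of the fetal heart and the contractile list were higher in part. Of 8 fetal isoform genes, 5 entered and 3 were higher: Acta2, Tnni1 and Nppa (atrial natriuretic peptide, which the fetal ventricle makes). Nppa stood at 5568, 7438, 447 and 444 CPM in CM4 and 1957, 2367, 149 and 262 CPM in CM1, with log2 ratios of 1.51, 1.65, 1.58 and 0.76, and both populations were far higher in the MI libraries than in the Sham libraries. Myh7, the beta myosin heavy chain of the fetal ventricle, had log2 ratios of 1.03, 1.11, 0.69 and 0.247 and was not counted. Of 12 smooth muscle contractile genes, 6 entered and 3 were higher: Acta2, Myl9 and Tagln2 (an actin-binding protein made by many cell types). Acta2, Tnni1 and Myl9 are among the 6 markers of CM4, so their part of both counts describes the label. Of all genes entered, 10.7% were higher. Tagln2 stood at 249.9, 207, 188 and 142 CPM against 80.4, 84.6, 56.4 and 68.6 CPM. Cald1 (caldesmon) had log2 ratios of 0.61, -0.35, -0.15 and 0.33, both above and below 0.

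**Figure D4:**
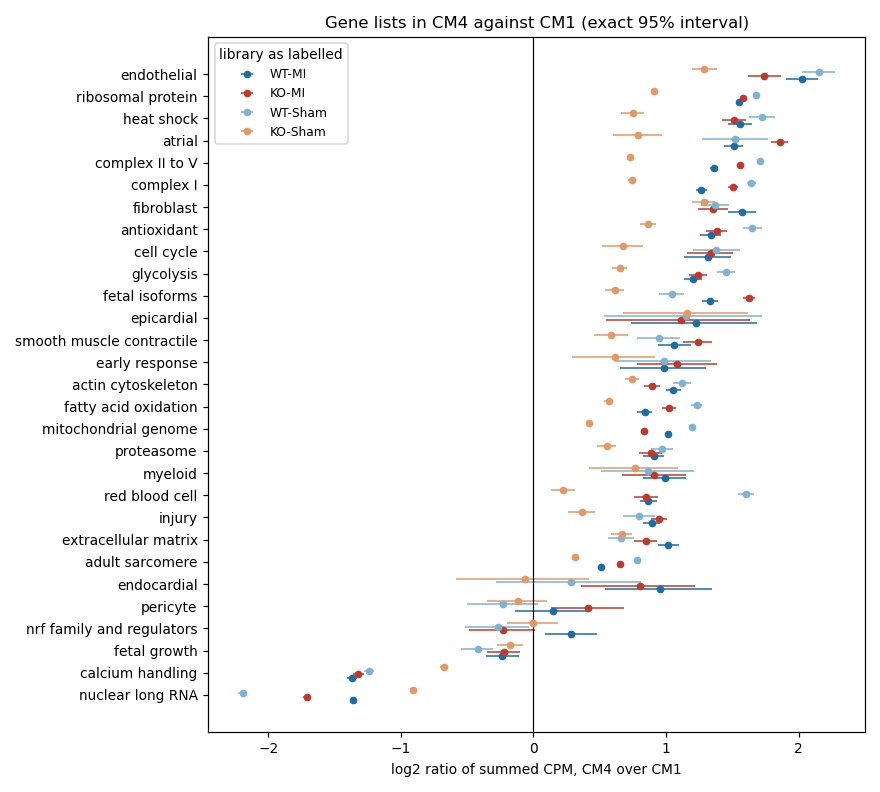
Log2 ratio of the summed CPM of gene lists, CM4 over CM1, for each library as labelled, with exact 95% intervals. The lists of the markers, of Schwann or neuronal genes, of Y-linked genes and of Xist and Tsix are not drawn. Ribosomal protein, respiratory chain, endothelial and fibroblast lists lie above 0 in all 4 libraries, and calcium handling and nuclear long RNA lie below 0 in all 4.

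Cell cycle genes were sparse. Of 30 genes, 7 entered and 3 were counted higher, and the list log2 ratios were 1.31, 1.34, 1.38 and 0.67. Of all genes entered, 10.7% were higher, and of those under 10 kb 44.2%. Pcna (the sliding clamp of DNA replication) stood at 96.9, 115, 70.9 and 59.2 CPM against 31.0, 26.8, 22.4 and 36.7 CPM, and Ccnd1 (cyclin D1) at 65.6, 85.4, 77.1 and 73.0 against 13.1, 17.5, 25.8 and 28.2 CPM. The proliferation marker Mki67 did not enter, with 24.99, 49.3, 49.3 and 23.7 CPM in CM4 from 8, 15, 16 and 12 UMIs and 12.7, 14.3, 10.2 and 13.4 CPM in CM1. The mitotic cyclin Ccnb2 had 2, 8, 6 and 7 UMIs in CM4. A UMI of Mki67 was found in 45 and of Ccnb2 in 23 of the 652 nuclei, too few for a level per library.

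Genes that answer stress were counted higher in part, and those of the family of Nrf1 in neither direction. Of all genes entered, 10.7% were higher and 9.3% lower, and of those under 10 kb 44.2% were higher. The spans of the genes on these lists were not matched to those of other genes. Of 42 proteasome genes, 36 entered, 14 were higher and 0 lower, and the list log2 ratios were 0.91, 0.89, 0.97 and 0.55. Psmb5, a catalytic subunit, stood at 219, 229.9, 247 and 197 CPM in CM4 and 69.4, 71.9, 64.7 and 110.02 CPM in CM1. Psmd1, a subunit of the regulatory particle whose gene spans 74765 bases, stood at 116, 52.5, 86.3 and 74.97 against 109.9, 76.4, 85.1 and 67.9 CPM and was not counted. Of 20 antioxidant genes, 15 entered and 11 were higher, among them Fth1 (ferritin heavy chain) at 1372, 1359.6, 1936 and 1345 against 491, 466, 558 and 692 CPM. Of 10 heat shock genes, 6 entered and 3 were higher: Hspa8, Hspb1 and Hspe1. Of 13 genes of the Nrf family and its regulators, 9 entered and 0 were counted in either direction. Nfe2l1 had log2 ratios of 0.62, -0.96, -0.31 and -0.31 and Nfe2l2 (Nrf2) of -0.28, 0.08, -0.25 and -0.18, of both signs in each case.

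Other lists are given by their counts. Of all genes entered, 10.7% were higher and 9.3% lower, and of those under 10 kb 44.2% were higher and 1.38% lower. Of 24 actin cytoskeleton genes, 13 were higher and 1 lower, and of 18 extracellular matrix genes 11 were higher and 1 lower. Of 18 glycolysis genes, 10 were higher and 0 lower. Of 19 genes of fatty acid oxidation, 6 were higher and 2 lower. Of the 8 fibroblast genes that entered, all 8 were higher, for example Col1a1 at 509, 466, 404 and 339 CPM against 156, 168, 160.3 and 123 CPM. Of the 5 endothelial genes that entered, 4 were higher, and Fabp4, which is made by capillary endothelium and fat cells, gave most of the sum at 1353, 1346, 1279 and 1507 CPM. Of the 3 pericyte genes that entered 1 was higher, and the list sum had ratios of both signs. Only 4 of 13 myeloid and 4 of 7 red blood cell genes entered and 0 were counted, but the sums of both lists were higher in CM4 in all 4 libraries by their intervals, with log2 ratios of 0.99, 0.91, 0.87 and 0.76 for myeloid and 0.87, 0.85, 1.60 and 0.22 for red blood cell genes. No epicardial gene entered, and the epicardial sum was also higher in all 4 libraries by its intervals, at 1.23, 1.11, 1.15 and 1.16. No Schwann or neuronal gene entered, and 1 of 6 endocardial genes entered and was not counted. Among 11 genes of fetal growth 9 entered, 2 were higher and 2 lower. Higher were also 1 of the 3 early response genes, 1 of the 7 injury genes and the 1 atrial gene that entered. Such small counts are not read as results about these lists.

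Long RNAs kept in the nucleus were much lower in CM4. The list stood at 49352, 37766.5, 22422 and 49838 CPM in CM4 and 126638, 123460.0, 102415 and 93502 CPM in CM1, with log2 ratios of -1.36, -1.71, -2.19 and -0.91. Malat1, which is found in nuclear speckles, gave nearly all of it, at 47568, 36328, 21537 and 48427 CPM in CM4 and 123738, 120497, 99564 and 91255.5 CPM in CM1. In CM4 Malat1 was lowest in the library labelled WT-Sham, which also had the highest mitochondrial share. In the library labelled KO-Sham it was highest in CM4 and lowest in CM1. Airn, an imprinted antisense RNA, was the other gene counted lower. Xist, which coats the inactive X chromosome of female cells, stood at 519, 565, 67.8 and 543 CPM in CM4, far lower in the library labelled WT-Sham, and the list of Xist and Tsix had ratios to CM1 of -1.06, -1.61, -1.50 and -0.56. The sexes in a pool and its label cannot be told apart.

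MI and Sham libraries were then compared within CM4, by label of genotype. Genes entered with 20 or more UMIs over both sums and were counted past 1.5-fold where the interval excluded no change. In the libraries labelled WT, 670 of 4873 genes were higher after MI (13.7%) and 385 lower (7.9%). In the libraries labelled KO, 493 of 5744 were higher (8.58%) and 451 lower (7.85%). TMM scaling moved the first comparison by -0.16 on the log2 scale and turned it to 441 higher and 544 lower, so that balance too depends on the scaling. In both comparisons 157 genes were higher and 49 lower, and 47 were counted in opposite directions, of 4671 that entered both.

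Of the 157 genes higher after MI in both, 10 are named here. Nppa stood at 5568, 7438, 447 and 444 CPM, log2 MI over Sham of 3.64 (3.39 to 3.89) under the WT label and 4.07 (3.87 to 4.27) under the KO label. Nppb (brain natriuretic peptide) stood at 1865, 2345, 123 and 138 CPM and Ankrd1 (a stress-responsive protein of the sarcomere) at 2075, 2016, 284 and 253 CPM. For all 3 both MI libraries lay far above both Sham libraries. The MI over Sham log2 ratios of Nppb were 3.92 and 4.09 in CM4 and 4.12 and 2.93 in CM1 of the same libraries, so the ratio was also large in CM1.

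Spp1 (osteopontin, a secreted matrix protein) stood at 391, 286, 0 and 7.89 CPM. With 0 UMIs in the library labelled WT-Sham, its log2 ratio under the WT label was at least 5.40 at a floor of 3 UMIs. Timp1 (an inhibitor of matrix metalloproteinases) stood at 225, 151, 9.25 and 17.8 CPM, Ccn2 (connective tissue growth factor) at 253, 312, 18.5 and 17.8 CPM and Ccl2 (a chemokine for monocytes) at 166, 98.5, 15.4 and 5.92 CPM. Xirp2 (an actin-binding protein of the intercalated disc) stood at 216, 229.9, 15.4 and 7.89 CPM, Acta1 (skeletal alpha-actin, a fetal isoform in the heart) at 187, 411, 15.4 and 39.5 CPM and Cnn1 (calponin 1) at 74.98, 72.2, 6.17 and 1.97 CPM. In each of these genes both MI libraries lay above both Sham libraries. The Sham values of several of them rest on few UMIs. The myeloid list had MI over Sham log2 ratios of 2.11 and 1.66 in CM4 and 1.99 and 1.51 in CM1. The fibroblast list had -0.04 and -0.01 in CM4. The part of RNA of other cell types in the values of these genes was not tested. Xirp2 had ratios of 3.81 and 4.86 in CM4 and of 1.94 and 1.91 in CM1. Their difference was not tested.

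**Figure D5:**
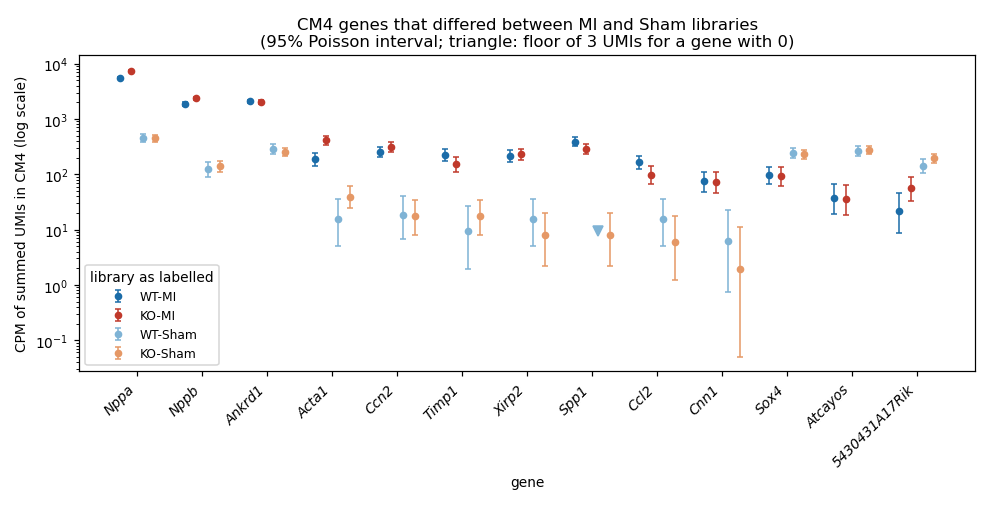
CPM of the UMIs summed over CM4 nuclei on a log axis for genes that differed between MI and Sham libraries under both genotype labels, with exact 95% Poisson intervals. Both MI libraries lie above both Sham libraries for Nppa to Cnn1 and below both for Sox4, Atcayos and 5430431A17Rik, and the triangle for Spp1 marks the floor of 3 UMIs in the WT-Sham library, which had 0.

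The genes lower after MI in both included Mlycd (malonyl-CoA decarboxylase) at 37.5, 42.7, 86.3 and 101 CPM, and Sox4 (a transcription factor of developing tissues) at 96.9, 92.0, 244 and 229 CPM. Angpt1, Adamts6, Adamts19, Efnb3, Arhgef3 and the noncoding genes Atcayos and 5430431A17Rik were the others named. Atcayos stood at 37.5, 36.1, 262 and 272 CPM. Both MI libraries lay below both Sham libraries in each of them. Of 19 genes of fatty acid oxidation, 11 were lower under the WT label and 7 under the KO label, and the list ratios were -1.08 (-1.14 to -1.01) and -0.53 (-0.59 to -0.47). Of all genes entered, 7.9% and 7.85% were lower. Fabp3 (the fatty acid binding protein of heart muscle) stood at 3996, 6118, 10198 and 9069 CPM. In CM1 the list ratios were -0.69 and -0.98.

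The markers of CM4 differed in their ratio of MI to Sham. Tnni1 was counted lower under the WT label, at -0.80 (-0.99 to -0.60), and not under the KO label, at -0.10 (-0.25 to 0.05). Acta2 was counted higher under the KO label, at 1.16 (0.91 to 1.42), and not under the WT label, at 0.52 (0.20 to 0.85), and Myl9 gave 1.77 (1.44 to 2.10) and 0.32 (-0.13 to 0.77). Tagln was counted higher under both labels, at 1.77 (0.60 to 3.12) and 2.63 (1.65 to 3.74). Cyyr1 was counted lower under the WT label, at -1.27 (-2.57 to -0.09), and not under the KO label, at -0.03 (-1.32 to 1.18), and Ldb2 was counted under neither. The difference between the labels was not tested. In CM1 of the same libraries Acta2 gave 0.60 under the WT label and 0.20 under the KO label.

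Some lists differed between MI and Sham under 1 label more than under the other. Of 38 complex I genes, 31 were lower after MI under the WT label and 3 under the KO label, with list ratios of -0.74 (-0.79 to -0.69) and -0.18 (-0.22 to -0.14). Of 42 genes of complexes II to V, 34 and 1 were lower, with -0.76 (-0.79 to -0.73) and -0.17 (-0.19 to -0.14). Of all genes entered, 7.9% were lower after MI under the WT label and 7.85% under the KO label. Both counts under the KO label are near or below that share and are not read as results about these lists. In CM1 the larger ratios were under the KO label, at -0.94 for complex I against -0.36 under the WT label. The nuclear long RNA list had ratios of 1.14 (1.10 to 1.18) and -0.40 (-0.43 to -0.37) in CM4. The median mitochondrial share of CM4 nuclei was 11.2% in WT-MI against 14.96% in WT-Sham, and 9.70% in KO-MI against 11.8% in KO-Sham, and its part in these ratios was not tested. Myeloid genes stood at 1081, 542, 250 and 172 CPM in CM4, higher after MI under both labels. S100a8 and S100a9, which neutrophils make, were among them, S100a8 at 341, 164, 33.9 and 25.6 CPM in CM4 and 180.1, 86.4, 20.4 and 17.2 CPM in CM1.

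Libraries labelled KO and WT were compared within CM4 after each surgery. After MI, 188 of 4883 genes were higher in the library labelled KO (3.85%) and 269 lower (5.51%), which TMM scaling, a shift of 0.07, turned to 256 and 212. After Sham surgery, 496 of 5660 were higher (8.76%) and 180 lower (3.18%). Only 4 genes were higher and 8 lower after both surgeries, and 60 were counted in opposite directions, of 4534 that entered both. A single library stands for each label, so a difference between pools cannot be told apart from the genotype.

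The 4 genes higher in both libraries labelled KO were Pdlim3 (a PDZ and LIM protein of the Z-disc) at 37.5, 85.4, 12.3 and 37.5 CPM, Ntn1 (the guidance cue netrin 1) at 78.1, 138, 123 and 213 CPM, Eci2 (an enzyme of fatty acid oxidation) at 103, 171, 117 and 183 CPM and Mrpl54 (a protein of the mitochondrial ribosome) at 147, 223, 108 and 179.5 CPM. Their log2 ratios after MI ran from 0.60 to 1.19 and after Sham surgery from 0.65 to 1.60. The 8 genes lower in both were the hemoglobin genes Hbb-bs, Hbb-bt, Hba-a1 and Hba-a2, and Gm42418, Hrc, mt-Nd5 and Ftl1. Hrc (a calcium-binding protein of the sarcoplasmic reticulum) stood at 68.7, 29.6, 139 and 84.8 CPM, and Ftl1 (ferritin light chain) at 659, 437, 724 and 430.1 CPM. Hbb-bs stood at 3680.5, 1905, 4868 and 1189.6 CPM, and in the library labelled WT-Sham a single nucleus held 696 of its 1579 UMIs. Without the top nucleus of each sum its ratio after Sham surgery was -1.28 in place of -2.03. In CM1 the hemoglobin ratios were also below 0, at -0.89 and -0.44 for Hbb-bs, so hemoglobin RNA was also lower in CM1.

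After MI the genes furthest above WT in the library labelled KO were 2 atrial light chains. Myl7 stood at 15.6, 669.9, 12.3 and 21.7 CPM, with a log2 ratio of 5.42 (4.18 to 7.06), and Myl4 at 40.6, 591, 46.2 and 37.5 CPM, with 3.86 (3.05 to 4.80). Of the 204 Myl7 and 180 Myl4 UMIs in the library labelled KO-MI, 191 and 151 were in the same 6 of 106 nuclei, so the values describe 6 nuclei and not the population. Fgf12, another of the 5 highest, had 16 UMIs in the library labelled WT-MI, all in 1 nucleus, and 23 of its 42 UMIs in the library labelled KO-MI were in 1 nucleus. Mrpl14 and Fmc1, which are mitochondrial proteins, had ratios of 1.51 and 1.42. The 5 lowest were Asap1, Vegfa, Mpped2, Tom1l2 and Usp15. Vegfa (vascular endothelial growth factor A) stood at 197, 72.2, 80.2 and 158 CPM, with -1.45 (-2.22 to -0.73) after MI and 0.98 (0.32 to 1.68) after Sham surgery, in opposite directions.

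After Sham surgery the highest in the library labelled KO were Sorbs2os, Xist, Ankrd28, 4930512H18Rik and Cox10, with log2 ratios from 2.04 to 3.57, and the lowest were the 4 hemoglobin genes and Yjefn3. Sorbs2os, an antisense gene, stood at 199.96, 112, 21.6 and 256 CPM, lowest in the library labelled WT-Sham. In CM1 its ratio after Sham surgery was -0.24. The same library held the least nuclear long RNA in CM4, and that list had a ratio of 1.15 (1.11 to 1.19) after Sham surgery and -0.39 (-0.42 to -0.35) after MI, against -0.13 and -0.04 in CM1.

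Lists tied to Nrf1 were read beside the shares of all genes, 5.51% lower after MI and 3.18% after Sham surgery. Of 35 proteasome genes that entered after MI, 0 were higher and 1 was lower in the library labelled KO, and of 36 after Sham surgery 1 was higher and 2 were lower. The list ratios were -0.17 (-0.29 to -0.06) and -0.20 (-0.30 to -0.10). Psmd1 stood at 116, 52.5, 86.3 and 74.97 CPM, with -1.14 (-2.08 to -0.26) after MI and -0.20 (-0.95 to 0.56) after Sham surgery. Hmox1, heme oxygenase 1, stood at 65.6, 13.1, 6.17 and 11.8 CPM from 21, 4, 2 and 6 UMIs, highest in the library labelled WT-MI, with -2.32 (-4.32 to -0.75) after MI. Of its 33 UMIs, 42.4% were in 10 nuclei. The myeloid list was also lower in the library labelled KO after MI, at -0.996 (-1.27 to -0.725) in CM4. Of its 5 genes that entered, 3 were lower and 0 higher, and the list ratio in CM1 was -0.918. The part of RNA of other cell types in the Hmox1 values was not tested. Of the genes of the Nrf family and its regulators, 2 of 7 entered were lower after MI and 0 of 8 after Sham surgery, with list ratios of -0.61 (-0.92 to -0.30) and -0.02 (-0.32 to 0.28). This family includes the targeted gene Nfe2l1, which itself met the rule after MI at -1.22 (-2.52 to -0.04). The count is therefore not read as a result about the family. Of the antioxidant genes, 2 of 17 entered were lower after MI and 1 of 14 after Sham surgery, with list ratios of 0.02 (-0.08 to 0.13) and -0.38 (-0.47 to -0.29).

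Of the 5 markers that entered after MI, 3 were higher in the library labelled KO, and of the 5 that entered after Sham surgery 0 were higher and 1 was lower. Of all genes entered, 3.85% were higher and 5.51% lower after MI, and 8.76% and 3.18% after Sham surgery. Counts over 5 genes are not read as results. After MI Acta2 gave 0.71 (0.44 to 0.98), Myl9 1.36 (1.02 to 1.72) and Tnni1 0.73 (0.53 to 0.92), all counted. Tagln gave 0.67 (-0.06 to 1.43) and Ldb2 -0.28 (-1.56 to 0.97), neither counted, and Cyyr1 had too few UMIs to enter. After Sham surgery Acta2, Myl9 and Tnni1 gave 0.07 (-0.24 to 0.39), -0.08 (-0.51 to 0.35) and 0.03 (-0.11 to 0.18), none counted, and Cyyr1 was counted lower at -1.02 (-2.02 to -0.04). In CM1 Acta2, Myl9 and Tnni1 gave 0.50, 0.65 and 0.40 after MI and 0.90, 0.88 and 0.39 after Sham surgery. The difference between the surgeries was not tested. CM4 nuclei of the library labelled KO-MI also had the highest median UMI count and the lowest median mitochondrial share among the 4 libraries, and the part of depth in these values was not tested.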

How the data were processed

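The authors deposited a matrix of UMI counts per gene and nucleus, not normalized (22574 genes, 8585 nuclei), and a table with, for each nucleus, its library, percent of mitochondrial UMIs, both population labels and transfer scores. The percent values and the scores, a fraction from 0 to 1, were used as the authors deposited them; 8 further columns were not used here. Per the study's methods and the submitters' processing notes, Cell Ranger (its version is not given in the sources used here) aligned the reads to a pre-mRNA reference of mm10/GRCm38, Scrublet doublets and nuclei outside 200 to 2500 genes were removed, only cardiomyocyte clusters were kept, and labels were transferred with Seurat 3. No doublet caller was run again. The labels and the methods name different versions of the 10x kit. Each column sum equalled the deposited count in 100% of nuclei.

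UMIs were summed per population and library and expressed as CPM (Python 3.11.15, numpy 2.4.6, pandas 2.3.3, scipy 1.17.1, matplotlib 3.10.9). Intervals are exact at 95%: Poisson for CPM, Clopper-Pearson for shares and conditional binomial for log2 ratios. They cover counting error only and take no account of differences between nuclei. A sum of 0 was set to a floor of 3 UMIs in a ratio. TMM factors came from edgeR 4.0.16 in R 4.3.3 and no model was fitted. GENCODE spans matched 22090 of 22574 gene symbols (97.9%), and promoters came from RefSeq.

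The CM4 nuclei, the markers and the 33 gene lists were chosen with earlier results of these data known. Named genes are the markers, genes that the study's text names, the 15 highest and 15 lowest by the weakest ratio to CM1, the 5 highest and 5 lowest with 50 or more UMIs in each comparison of libraries, up to 10 per direction counted in both comparisons of a kind, and up to 4 per list with the most UMIs; 1 gene that this rule names is not reported here. Col1a1 and Pecam1 were also used to show detection of other cell types. Alternatives were other choices of CM4 and CM1 nuclei, TMM scaling, thinning to 1000 UMIs, limits on mitochondrial and other-cell RNA, other count minimums, leaving out each library or the top nucleus, and, added after seeing the data, leaving out nuclei with shared barcodes.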

Additional observations from a re-analysis of the deposited data

Results flagged for a closer look

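Several list sums in CM4 had intervals on opposite sides of 0 in the 2 comparisons of a kind. With 1 library per group the differences were not tested. In the ratio of KO to WT as labelled, the value after MI minus the value after Sham surgery was 0.42 for adult sarcomere genes (0.23 after MI, -0.19 after Sham surgery), 0.56 for complex I (0.46 and -0.10), 0.59 for complexes II to V (0.44 and -0.15) and 0.55 for fatty acid oxidation (0.39 and -0.16). It was 0.50 for glycolysis (0.20 and -0.30), 0.39 for ribosomal proteins (0.19 and -0.20) and 0.51 for the gene Tnnt2 (0.28 and -0.22). For the nuclear long RNA list it was -1.54 (-0.39 and 1.15), the largest of these differences and of the opposite sign to the others.

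In the ratio of MI to Sham, the value under the WT label minus the value under the KO label was -0.80 for the 6 markers (-0.33 and 0.47), -0.42 for adult sarcomere genes (-0.22 and 0.20), -0.50 for glycolysis (-0.16 and 0.34) and -0.92 for red blood cell genes (-0.20 and 0.72). For the nuclear long RNA list it was 1.54 (1.14 and -0.40). Both sets of differences use the same 4 sums. For a given list the 2 differences are the same quantity with the sign reversed, so the second is no further result. The library labelled WT-Sham, whose CM4 nuclei had a median of 14.96% mitochondrial UMIs, enters each difference. The part of the mitochondrial share was not tested.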

How the results depend on the processing

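No paired analysis was possible because each group is 1 library and no result comes from a test. Alternatives were counted for only a part of the genes named against CM1. Of these, 611 kept the call or its absence, 103 kept direction and lost the call and 6 gained it. The 611 may include a change of direction where a gene was counted in neither setting. For the lists 280 kept the call or its absence and 16 lost the call. For genes named between libraries 646 kept and 63 lost the call, with 6 reversals. Leaving out each library in turn gave 751 to 957 higher and 650 to 1047 lower genes, the highest values without the library labelled KO-Sham. In CM4 against CM1 the main rule gave 711 higher and 620 lower of 6665 genes entered and 5 lower lists. Thinning to 1000 UMIs gave 326 and 255 of 3432 genes and 3 lower lists. Nuclei under 10% mitochondrial UMIs gave 181 and 158 of 1047 genes and 2 lower lists. The nuclei with less RNA of other cell types gave 381 lower of 4721 genes and 3 lower lists. Each of these alternatives enters fewer genes or UMIs.

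For KO over WT after MI, all nuclei with the final label CM4 gave 294 higher and 438 lower of 5686 genes entered. Thinning gave 68 and 87 of 2149, and a minimum of 50 UMIs 108 and 140 of 1996. After Sham surgery, thinning gave 240 higher of 3081 and the minimum 325 and 102 of 2539. For MI over Sham under the WT label, TMM gave 441 higher of 4873, thinning 304 and 208 of 2496, and the minimum 370 higher of 2002. Under the KO label, thinning gave 246 and 185 of 2794 and the minimum 301 and 298 of 2585. The nuclei with less RNA of other cell types gave 321 and 298 of 3337. The share of CM4 became 9.59%, 13.7% and 10.5% (WT-MI, WT-Sham, KO-Sham) with the final label, 10.3%, 7.31% and 9.59% (WT-MI, KO-MI, KO-Sham) with the transferred label, and 2.70%, 3.51%, 0.904% and 2.97% under the quality limit. Reversed were Ccl2 for KO over WT after MI with thinning (0.61) and, with all nuclei of the final label CM4, Mpped2 for KO over WT after Sham surgery (-0.29) and for MI over Sham under the WT label (-0.17), and Hbb-bs (-1.22), Hba-a2 (-1.10) and Hbb-bt (-0.093) for MI over Sham under the KO label; the cause was not tested. Shallow CM4 nuclei limit genes under 5 expected UMIs, which include Tagln, Cyyr1 and Ldb2.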
